A study of Arabidopsis thaliana with 20 samples.

Results

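Of the 33201 genes listed for Arabidopsis thaliana root tips, 109 formed a set of transcripts that stood at least 2-fold higher in cells labelled meristematic zone (MZ) than in cells labelled elongation zone (EZ). The members were chosen by 3 values: a mean of at least 20 FPKM over the 10 MZ libraries, a mean over the 10 EZ libraries of at most 50% of that, and a lower EZ than MZ value in each of the 10 pairs of libraries of equal day and replicate number. A mean of 20 FPKM in MZ was reached by 6049 genes, of which 223 also met the fold and 114 met all 3 limits, and 5 of these were set aside by the rule. The zone difference of the members is therefore described below with its values and is not tested. The deposited table is in FPKM, read fragments divided by the length of the transcript and the size of the library.

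All seedlings were Col-0 carrying PET111:GFP, a marker line in which columella cells of the root cap fluoresce, and no other genotype or treatment was included. They were grown on medium with sucrose to an age of 3, 4, 5, 6 or 7 days. The roots were then cut and digested to protoplasts. Cells without GFP were sorted, so that columella cells were removed while the other root cap cells could remain. Each zone at each age had 2 replicates, giving 10 groups and 20 libraries. The labels do not say whether these came from separate cultures, so p-values measure only the spread between these libraries, which may be technical. They do not say how many roots were pooled, or whether one replicate number in both zones means the same plants.

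In the root tip, cells divide in the meristem, elongate further up and then differentiate, while the lateral root cap surrounds the meristem and its outer cells die as they reach its upper end. Root cap and outer cells of the tip secrete mucilage and defence compounds, take up nutrients and build lipid barriers. By role, the 109 members are 24 genes of specialised and redox metabolism, 19 regulators and signalling genes, 13 cell wall genes, 10 genes of lipids, waxes and membranes, 8 of cell death, nucleases and proteases, 8 of transport and phosphate release, 5 of the cytoskeleton and endomembranes, 3 late embryogenesis abundant genes, and 19 other or undescribed ones. These roles were assigned by hand from the annotation after the values were seen, and the other genes were not sorted by them, so the counts describe the members alone.

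The labelled zones were checked against marker genes. The summed level of 8 genes of dividing cells ran from 14.2 to 71.6 FPKM in the MZ libraries and from 51.4 to 205 FPKM in the EZ libraries, the opposite side from the zone names. PCNA1, a clamp protein of DNA replication, had a mean of 9.42 ± 5.27 FPKM in MZ and 39.2 ± 15.8 FPKM in EZ (SD, n = 10 each). None of the 8 was at 0 in every library. The expansin genes EXPA15 and EXPA4, of a family that loosens walls of growing cells, ran with the zone names. Both were lower in MZ in 10 of 10 pairs. They are on no marker list and were named because limma called them higher in EZ. Their direction is therefore no check of the labels. Some other expansin genes ran against the names: EXPA7 was lower in EZ in 8 of 10 pairs, and EXPA17, as a member, in all 10. Of 21 genes of cell wall and expansion that are not members, limma called 5 lower in EZ and 5 higher. Whether the labels of the zones were exchanged was not tested. An exchange would turn the direction of every MZ to EZ ratio given here, so MZ and EZ below are the labels of libraries, and a gene higher in MZ is not called meristematic. The summed level of 4 root cap markers ran from 437 to 1561 FPKM in MZ and from 316 to 1261 FPKM in EZ. BRN1 and BRN2 were lower in EZ in 10 of 10 pairs each, SMB in 2 and CEL5 in 6. The sums of the other marker lists overlapped between zones: endodermal barrier 330 to 1576 FPKM in MZ and 12.3 to 2112 FPKM in EZ, and xylem 18.5 to 916 and 7.91 to 441 FPKM. Root hair cells gave 405 to 1131 and 344 to 860 FPKM, and phloem 4.85 to 49.0 and 2.79 to 47.3 FPKM. In such sorted pools, fewer cells of a type and less RNA per cell cannot be told apart, and the part of cell composition in the zone difference of the members was not tested. Column sums ran from 699298 to 833055 FPKM, and genes at 1 FPKM or more numbered 15912 to 17677 in MZ libraries and 17765 to 19251 in EZ libraries.

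**Figure D1:**
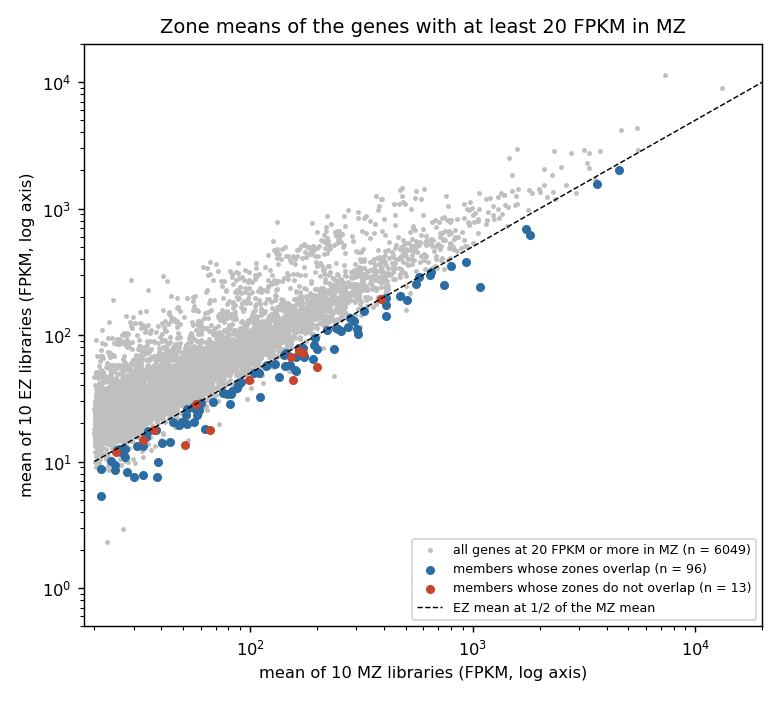
Mean FPKM over the 10 EZ libraries against the mean over the 10 MZ libraries, on log axes, for the genes with at least 20 FPKM in MZ (grey) and the 109 members (coloured by whether the values of the zones overlap); genes with an EZ mean under 0.5 FPKM are not drawn. The members lie on or below the dashed line of a 2-fold difference along the whole range of levels, with MYB30 farthest from it at a ratio of 5.11.

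The ratio of the MZ mean to the EZ mean ran from 2.01 to 5.11 over the members, with a median of 2.32, and the MZ mean ran from 21.3 to 4550 FPKM, with a median of 110 FPKM. Most members lay near the limit rather than far from it: with a fold of 3 in place of 2, 18 remained, and with 1.5 the count was 390. Just inside the fold limit were AT3G54200, a late embryogenesis abundant (LEA) hydroxyproline-rich glycoprotein, at 2.01, the RING-type protein gene AT3G10815 at 2.01 and AT1G07175 at 2.01. Just outside were HIR2 at 1.99, PARVUS at 1.98 and the chitinase gene AT2G43600 at 1.98, each lower in EZ in all 10 pairs. Nearest to the limit on the MZ mean were AT2G07835 at 21.3 FPKM, AtLEA4-1 at 21.4 FPKM and AT3G24750 at 23.7 FPKM inside. Outside were NVL at 18.1 FPKM, ATG18B at 16.7 FPKM and AT4G35510 at 15.9 FPKM.

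The zones overlapped for most members once pairs were ignored. In 13 of the 109 every MZ library was above every EZ library, which holds for 0.139% of the 22335 genes tested; since the rule used the same contrast, nothing is read from that share. Over the other members, between 77 and 99 of the 100 combinations of an MZ and an EZ library had the lower value in EZ. The 13 are AT1G03070, MEE23, AT2G37700, AT4G16190, AT5G20700, AT4G24340, CAM8, AT5G17370, AT1G77770, AT4G03820, AT1G79710, AT3G10815 and AT3G54200.

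AT1G03070, described as a Bax inhibitor-1 family protein and listed with the alias LFG4, had the largest ratio of these. Bax inhibitor proteins are membrane proteins that restrain programmed cell death. Its 10 MZ values lay between 30.2 and 71.4 FPKM, with a median of 50.0, and its 10 EZ values between 5.25 and 27.4 FPKM, with a median of 9.96. The lowest MZ library, day 7 replicate 1, was thus above the highest EZ library, day 6 replicate 2. The means were 51.3 ± 14.2 and 13.6 ± 8.04 FPKM (SD, n = 10), a ratio of 3.78.

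MEE23, a member of the berberine bridge enzyme family of FAD-linked oxidases, ran from 27.7 to 110 FPKM in MZ (median 62.1) and from 7.44 to 25 FPKM in EZ (median 18.1). Its zones came close at day 5 replicate 2, where the MZ value was 1.11 times the EZ value, against 10.8 times in its widest pair. AT2G37700, of the fatty acid hydroxylase superfamily, ran from 138 to 268 FPKM in MZ (median 185) and from 22.0 to 136 FPKM in EZ (median 40.7), so that its zones nearly met. The papain-type cysteine protease gene AT4G16190 ran from 85.0 to 263 FPKM in MZ (median 138) and from 21.0 to 77.6 FPKM in EZ (median 36.5).

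The letters upstream of 4 members are shown because 3 of them have the largest ratios among the 13 genes without overlap, and the other, PLDP2, is a phosphate-related member whose upstream letters hold the site named P1BS, which phosphate starvation response factors bind. Each is the 250 bases before the annotated gene start, 5′ to 3′ on the strand of the gene, from RefSeq's TAIR10.1, matched by gene identifier; the authors' build is TAIR10 per the submitters' processing notes. Capitals mark matches to any of the 10 motifs searched on both strands.
AT1G03070 (chr1:729580-729829, plus strand): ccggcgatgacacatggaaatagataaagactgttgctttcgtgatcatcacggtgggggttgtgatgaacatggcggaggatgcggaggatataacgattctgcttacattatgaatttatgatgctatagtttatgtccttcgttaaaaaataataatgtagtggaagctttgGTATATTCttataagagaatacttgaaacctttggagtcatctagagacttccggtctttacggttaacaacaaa
MEE23 (chr2:14677399-14677648, minus strand): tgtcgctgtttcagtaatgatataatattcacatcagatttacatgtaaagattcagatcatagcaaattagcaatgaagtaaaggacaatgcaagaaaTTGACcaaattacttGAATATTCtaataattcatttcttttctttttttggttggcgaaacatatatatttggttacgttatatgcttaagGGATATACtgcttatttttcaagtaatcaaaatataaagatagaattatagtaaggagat
AT2G37700 (chr2:15814219-15814468, minus strand): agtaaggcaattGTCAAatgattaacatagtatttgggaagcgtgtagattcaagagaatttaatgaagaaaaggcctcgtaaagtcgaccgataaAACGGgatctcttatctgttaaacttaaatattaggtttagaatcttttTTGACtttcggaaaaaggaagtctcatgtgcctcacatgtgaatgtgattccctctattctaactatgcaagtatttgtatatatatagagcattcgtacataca
PLDP2 (chr3:1634944-1635193, plus strand): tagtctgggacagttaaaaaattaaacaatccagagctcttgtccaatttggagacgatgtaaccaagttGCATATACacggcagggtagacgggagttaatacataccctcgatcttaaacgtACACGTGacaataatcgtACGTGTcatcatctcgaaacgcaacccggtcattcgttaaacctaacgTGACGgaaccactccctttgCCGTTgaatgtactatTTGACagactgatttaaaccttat

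The site GNATATNC, named P1BS, occurred 1 time upstream of AT1G03070, 2 times upstream of MEE23 and 1 time upstream of PLDP2. It was not found upstream of PHT1;4, SQD2 or PAP22, the other members described below with phosphate supply. It was found upstream of 8 of the 107 members with a window of this length (7.48%), of 5.82% of the 5931 genes with at least 20 FPKM in MZ and of 5.46% of all 27561 protein-coding genes. TTGAC, the core of the W-box that WRKY factors bind, stood upstream of 57 members (53.3%), 47.9% of the genes at 20 FPKM and 44.9% of all. CACGTG, the G-box, stood upstream of 12 (11.2%), 8.14% and 6.46%. ACGTGT, an abscisic acid response element that can overlap the G-box, stood upstream of 15 (14.0%), 12.4% and 10.5%. TGTCTC, the auxin response element, was found for 9 members (8.41%) against 10.4% and 10.9%. AACGG, the core of a mitosis-specific activator site, was found for 19 (17.8%) against 21.9% and 20.6%, and TGACG, the as-1 core, for 22 (20.6%) against 19.8% and 18.5%. AAACCCTA, the telo-box, was found for 2 members (1.87%, against 3.1% and 4.47%). AAAATATCT, the evening element, was found for 2 (1.87%, against 2.44% and 2.36%), and GCCGCC, the GCC-box, for 1 (0.935%, against 1.84% and 1.88%). These matches describe letters and no binding was measured.

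**Figure D2:**
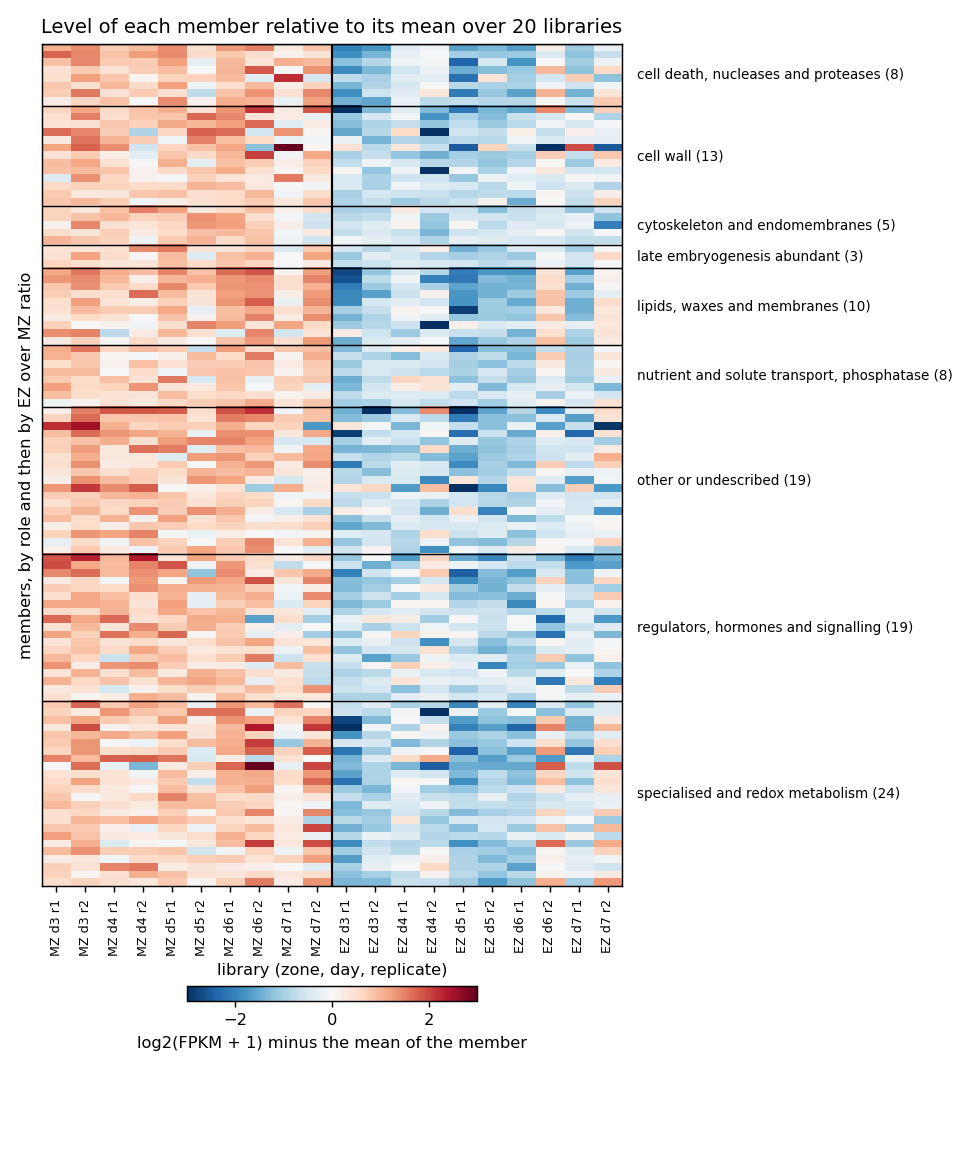
Level of each of the 109 members (rows, by role) in each of the 20 libraries (columns, by zone, day and replicate), as log2(FPKM + 1) minus the mean of the member over all libraries. MZ columns are mostly red and EZ columns mostly blue, and EZ day 6 replicate 2 and EZ day 7 replicate 2 are paler than the other EZ columns.

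Among the 8 members of cell death, nucleases and proteases the ratio ran from 2.32 to 3.78 with a median of 2.46. BFN1, a nuclease of senescing and dying cells that marks dying lateral root cap cells, lay between 59.7 and 199 FPKM in MZ (median 139) and between 13.3 and 72.6 FPKM in EZ (median 45.1), so that the zones overlapped. RNS3, a ribonuclease, lay between 132 and 670 FPKM in MZ (median 377) and between 52.1 and 454 FPKM in EZ (median 126). Its MZ day 5 replicate 2 library, at 132 FPKM, stood below the other MZ libraries, which lay between 305 and 670 FPKM. AT3G03500, a TatD-related deoxyribonuclease gene, reached 937 ± 407 FPKM in MZ against 378 ± 290 FPKM in EZ (SD, n = 10), and AT3G04330, a Kunitz-type protease inhibitor gene, 472 ± 176 against 204 ± 114 FPKM. The serine carboxypeptidase-like gene scpl25 and the rhomboid protease gene RBL2 had lower levels, 82.1 ± 22.0 and 48.0 ± 31.2 FPKM in MZ.

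Of a list of 11 genes of the root cap and its cell death, BFN1 and RNS3 are members, and the other 9 were tested with limma for the mean difference between zones over the 5 ages. After Benjamini-Hochberg adjustment over all 22335 genes, 4 were lower in EZ (44.4%), where 7.77% of all genes were, and 1 was higher (11.1%), where 20.6% of all genes were. Both shares of all genes are for the deposited values and changed with the scaling, as described with the remaining lists. The median difference of the 9 was -0.69 on the log2(FPKM + 1) scale against 0.15 over all genes. MC9, a metacaspase, lay between 252 and 1183 FPKM in MZ and between 108 and 705 FPKM in EZ, a difference of -1.34 ± 0.31 (SE, n = 20 libraries; adjusted p = 0.00558). BRN2 and BRN1, NAC transcription factors of root cap maturation, fell by 0.93 ± 0.28 and by 0.79 ± 0.24 (adjusted p = 0.0236 and 0.0240), calls that were each lost on leaving out 1 of 3 libraries. Both calls were also lost with no filter on low values. FEZ, a NAC factor of root cap stem cells, was on the other side, at 1.07 ± 0.578 FPKM in MZ and 4.68 ± 3.16 FPKM in EZ (SD, n = 10; adjusted p = 0.00361).

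The 10 members of lipids, waxes and membranes had the highest median ratio of the 9 roles, 2.56, with a range of 2.01 to 4.48. AT3G06460, a GNS1/SUR4 family gene, the family of fatty acid elongases, lay between 469 and 1661 FPKM in MZ (median 1025) and between 66.4 and 583 FPKM in EZ (median 173). Its smallest ratio within a pair was 2.19, at day 7 replicate 2, so that it exceeded 2-fold in all 10 pairs. LPAT3, a lysophosphatidyl acyltransferase that makes phosphatidic acid, averaged 38.7 ± 10.03 FPKM in MZ and 9.96 ± 7.90 FPKM in EZ (SD, n = 10), a ratio of 3.88. AT4G15160, a lipid-transfer type protein gene, was the third most abundant member, at 1812 ± 625 FPKM in MZ and 616 ± 454 FPKM in EZ. KCS5, which extends very long chain fatty acids, ADS1, a delta 9 desaturase, GPAT2, a glycerol-3-phosphate acyltransferase, and AT3G49190, of the wax ester synthase family WSD1, had ratios of 2.18, 2.62, 2.08 and 2.21. The MYB factor MYB30, described with the regulators, is known to promote very long chain fatty acid synthesis and the hypersensitive cell death response.

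Several members belong to phosphate supply. PLDP2, which breaks down phospholipids, lay between 15.7 and 42.5 FPKM in MZ (median 33.9) and between 1.78 and 23.6 FPKM in EZ (median 10.1). SQD2, which completes the sulfolipid that replaces phospholipid when phosphate is short, averaged 222 ± 75.4 FPKM in MZ and 110 ± 67.3 FPKM in EZ (SD, n = 10). PHT1;4, a phosphate uptake transporter, lay between 51.1 and 156 FPKM in MZ (median 84.9) and between 19.6 and 89.7 FPKM in EZ (median 28.9), with its highest value in day 6 replicate 2 in both zones. PAP22, a purple acid phosphatase, averaged 51.4 ± 19.9 and 23.3 ± 13.2 FPKM. In 1 pair, day 4 replicate 2, its zones nearly met, at 43.2 FPKM in MZ and 43.1 FPKM in EZ, a ratio of 1.00.

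AMT1;1, an ammonium uptake transporter, lay between 66.7 and 140 FPKM in MZ and between 35.5 and 85.9 FPKM in EZ. NLM1, a NOD26-like channel of the aquaporin family, was both abundant and even, with 559 to 946 FPKM in MZ (median 862) and 218 to 620 FPKM in EZ (median 319). SWEET2, a vacuolar sugar transporter, averaged 40.3 ± 14.1 and 13.9 ± 7.88 FPKM (SD, n = 10). AT1G79710, of the major facilitator superfamily, did not overlap between zones, at 27.3 to 48.6 FPKM in MZ and 12.2 to 22.2 FPKM in EZ. Of the list of phosphate, nitrate, ammonium and sulfate genes, PHT1;4, SQD2 and AMT1;1 are members and 18 others were tested. By limma 3 of these were lower in EZ (16.7%, where 7.77% of all genes were) and 1 was higher (5.56%, where 20.6% were). Of the lower genes, NIR1 and AMT1;3 belong to nitrogen supply and only MGD3 to phosphate. The phosphate genes PHT1;1, SPX1 and PAP17 were called in neither direction (adjusted p = 0.148, 0.498 and 0.736 by limma). SPX1 averaged 20.1 ± 14.4 FPKM in MZ and 25.3 ± 17.0 FPKM in EZ. NIR1, nitrite reductase, averaged 37.4 ± 11.7 FPKM in MZ and 24.0 ± 4.88 in EZ (adjusted p = 0.00839), and AMT1;3 averaged 28.0 ± 9.71 and 17.4 ± 4.35 FPKM (adjusted p = 0.0209). MGD3, a galactolipid synthase of phosphate shortage, averaged 8.18 ± 3.53 against 3.48 ± 3.72 FPKM (adjusted p = 0.0313). SQD1, the enzyme before SQD2, was the higher one, at 10.7 ± 3.03 against 14.7 ± 3.48 FPKM (adjusted p = 0.0412). The calls on MGD3 and SQD1 were lost on leaving out 1 library in 11 and 13 of 20 cases, and that on AMT1;3 in 1. The call on SQD1 was also lost with equal quantiles and under median-of-ratios scaling, and that on MGD3 with no filter on low values.

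The 13 cell wall members had ratios of 2.06 to 3.06 with a median of 2.38, and the zones overlapped for all 13. CSLB01, a cellulose synthase-like protein, lay between 85.4 and 315 FPKM in MZ and between 7.17 and 194 FPKM in EZ, and AT1G23720, a proline-rich extensin-like gene, between 349 and 1328 FPKM in MZ and between 117 and 407 FPKM in EZ. EXPA17, an expansin, lay between 20.5 and 136 FPKM in MZ (median 83.1) and between 1.29 and 58.5 FPKM in EZ (median 24.6). CYT1 makes GDP-mannose, a precursor of wall glycans and ascorbate, and averaged 406 ± 158 FPKM in MZ and 142 ± 44.5 FPKM in EZ (SD, n = 10). Pectin-related members were AT5G45280, a pectin acetylesterase gene, with a ratio of 2.15, the pectin methylesterase inhibitor genes AT5G51520 and AT4G25250, with 2.25 and 2.17, and RGXT2, which adds xylose to rhamnogalacturonan II, with 2.38. CTL2, a chitinase-like protein, was among the most variable members, with 8.87 to 207 FPKM in MZ and 0 to 91.2 FPKM in EZ, the 0 being a listed value.

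The other wall genes were called in both directions. Of 21 other genes of the list of cell wall and expansion, limma called 5 lower in EZ (23.8%) and 5 higher (23.8%), where 7.77% and 20.6% of all genes were. The median difference of the 21 was -0.23 on the log2(FPKM + 1) scale, against 0.15 over all genes. The cellulose synthase subunit gene CESA1 was lower, at 206 ± 47.4 FPKM in MZ and 124 ± 21.9 FPKM in EZ (SD, n = 10; difference -0.71 ± 0.14, SE; adjusted p = 0.00205). The calls on CSI1, XTH19, XTH4 and EXPA5, also lower, were lost in 9, 10, 12 and 13 of the 20 fits without 1 library. The call on XTH4 was also lost with equal quantiles and with no filter on low values, and that on EXPA5 with a pseudocount of 5. The expansin genes EXPA15 and EXPA4 were higher in EZ, EXPA15 at 14.1 ± 5.27 against 90.6 ± 53.9 FPKM (adjusted p = 0.000778), and EXPA4 at 7.58 ± 5.58 against 25.2 ± 11.2 FPKM (adjusted p = 0.000885), as were EXPA6, XTH9 and XTH20. Expansins thus stood on both sides. EXPA7, an expansin of the root hair list, was lower in EZ, at 88.2 ± 40.1 FPKM in MZ and 40.1 ± 21.0 FPKM in EZ (SD, n = 10; adjusted p = 0.0117 by limma). The member EXPA17 lay on the side of EXPA7. EXPA5 did too, but at levels near the floor, 0.699 ± 0.446 FPKM in MZ and 0.202 ± 0.273 FPKM in EZ.

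The remaining lists hold no member. Over all 12 pathway lists, 209 genes that are not members were tested. Of these, limma called 34 lower in EZ (16.3%) and 17 higher (8.13%), against 7.77% and 20.6% of all genes. The shares of all genes depended on the scaling between libraries. With equal quantiles, nearly as many of all genes were called lower in EZ as higher, and the list genes gave 36 lower and 15 higher. Under median-of-ratios scaling the gap between the shares of all genes also narrowed, and the list genes gave 51 and 13. Each list is therefore compared with all genes for the deposited values only. Among jasmonate genes 3 of 27 were lower and 2 higher. The repressor JAZ1 averaged 814 ± 106 FPKM in MZ and 495 ± 103 FPKM in EZ (adjusted p = 0.000414). The transcription factor MYC2 stood on the other side at 85.9 ± 29.8 and 141 ± 37.5 FPKM (adjusted p = 0.00374). Lower and higher counts were 3 and 1 of 22 for wound, touch and defence, 3 and 0 of 15 for root hair, 3 and 1 of 19 for aquaporins, and 2 and 1 of 19 for iron acquisition. They were 4 and 3 of 33 for auxin, 1 and 1 of 10 for abscisic acid and cold, 0 and 1 of 6 for ethylene, and 3 and 0 of 10 for redox and detoxification.

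Regulators and signalling genes made up 19 members, with ratios of 2.01 to 5.11 and a median of 2.32. MYB30 had the largest ratio of all 109. Its MZ values were 56.2 and 75.03 FPKM at day 3, 29.7 and 81.2 at day 4, 19.7 and 33.9 at day 5, 24.7 and 22.1 at day 6, and 17.1 and 22.9 FPKM at day 7. Its EZ values were 6.02 and 14.0, 3.79 and 22.8, 4.32 and 2.96, 8.79 and 4.91, and 2.61 and 4.64 FPKM at the same ages. The pair ratio never fell under 2.81, although the EZ value of 22.8 FPKM at day 4 replicate 2 lay above 3 of the 10 MZ values.

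ARF16, an auxin response factor needed for root cap development, averaged 37.7 ± 16.2 FPKM in MZ and 17.8 ± 9.76 FPKM in EZ (SD, n = 10). AT2G17500, with the alias PILS5, of the PIN-LIKES auxin carriers of the endoplasmic reticulum, averaged 302 ± 86.2 and 112 ± 48.6 FPKM. CAM8, a calmodulin, did not overlap between zones, at 26.5 to 49.8 FPKM in MZ and 5.20 to 22.1 FPKM in EZ. The peptide genes RALFL22 and RTFL5 had ratios of 2.1 and 2.32, the kinase CIPK9 2.1, BAS1, a cytochrome P450 that inactivates brassinosteroids, 2.05, and MYBR1 2.09. RAS1, which acts in abscisic acid and salt responses, varied more than most within MZ, from 8.03 to 89.5 FPKM. The 3 RING-type members AT4G38140, AT3G10815 and AT2G01275 were 3% of the 100 genes so described with at least 20 FPKM in MZ, where the members as a whole were 1.80% of the 6049.

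Specialised and redox metabolism was the role with most members, 24, with ratios of 2.01 to 3.73 and a median of 2.28. BGLU34, with the alias TGG4, a myrosinase, which releases defence compounds from glucosinolates, was the second most abundant member: it lay between 1215 and 6791 FPKM in MZ (median 3290) and between 441 and 3806 FPKM in EZ (median 1072). It shares 47.2% of its 32-base words with transcripts of other genes, so reads may have been divided between copies. Its relative BGLU35 averaged 2922 ± 1296 FPKM in MZ and 1333 ± 940 FPKM in EZ (SD, n = 10) but was lower in EZ in 8 of 10 pairs only. PDC3, a pyruvate decarboxylase, lay between 19.9 and 73.2 FPKM in MZ and between 1.14 and 21.7 FPKM in EZ.

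The HXXXD-type acyltransferases AT5G07870, PMAT1 and AT5G07860 are members, 3 of the 8 so described with at least 20 FPKM in MZ (37.5%, where the members were 1.80% of all such genes). Of the 43 other tested genes so described, at any level, limma called 1 lower in EZ and 2 higher. The family words were set after the values were seen. AT5G07870 and AT5G07860 are neighbours on one strand with no coding gene between them. They averaged 248 ± 60.6 and 166 ± 51.3 FPKM in MZ and 111 ± 24.9 and 78.8 ± 20.4 FPKM in EZ. AT2G23400 and CPT, a cis-prenyltransferase, are the other adjacent pair, and they share 20.15% and 22.9% of their words with other genes, so their values are uncertain. Cytochromes P450 gave 3 members, CYP702A2, CYP96A14P and BAS1, of 40 at 20 FPKM (7.5%), and LEA proteins 3 of 25 (12%). The LEA-like gene AT5G54370 was the most abundant member, with 2196 to 6525 FPKM in MZ (median 4699) and 1310 to 4293 FPKM in EZ (median 1718). No member was described as a ribosomal protein or a histone, of 200 and 39 such genes with at least 20 FPKM in MZ. The members were 1.80% of all genes at that level. Of the tested genes so described, limma called 262 of 319 and 47 of 100 higher in EZ, and 5 and 2 lower. Genes higher in EZ could not meet the rule, so nothing is read from the absence.

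ACT2, an actin gene often taken as a reference for normalisation, is a member of the cytoskeletal role, with a mean of 1733 ± 595 FPKM in MZ and 687 ± 165 FPKM in EZ (SD, n = 10). Its MZ values lay between 1469 and 2694 FPKM at days 3 to 6 and were 986 and 711 FPKM at day 7, where the EZ values were 882 and 449 FPKM. The pair ratio of ACT2 was as low as 1.12 at day 7 replicate 1. CRT1a, a calreticulin that folds proteins in the endoplasmic reticulum, averaged 652 ± 218 and 316 ± 55.0 FPKM, and MDP40, a microtubule-associated protein, 24.8 ± 8.15 and 8.64 ± 3.47 FPKM.

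Undescribed members include AT1G77770, the most even of the 109 over MZ libraries (SD of 0.20 on the log2(FPKM + 1) scale), which lay between 116 and 190 FPKM in MZ and between 57.2 and 104 FPKM in EZ. AT4G03820, AT1G79710, NLM1 and AT3G54200 came next, with SDs of 0.22 to 0.27. The most variable were AT2G23400, CTL2, AT2G07835, RAS1 and EXPA17, with SDs of 1.34, 1.24, 1.13, 1.09 and 0.98. RSU1, AT1G27110, a tetratricopeptide repeat gene, and AT2G07835 had ratios of 4.24, 4.02 and 4.00. RSU1 shares 17.0% of its words with other genes and is listed at 0 in 2 EZ libraries, and AT2G07835 has 95.1% of its words in an organelle genome. ATCG01060 was not matched in the annotation used and is listed at 0 in 1 EZ library. Of the 109 members, 25 overlap a gene on the other strand (22.9%, against 25.3% of the genes at 20 FPKM), AT1G03070, MEE23, AT2G37700, AT4G16190 and PLDP2 among them. Since strandedness is not stated, reads of both genes cannot be told apart there.

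**Figure D3:**
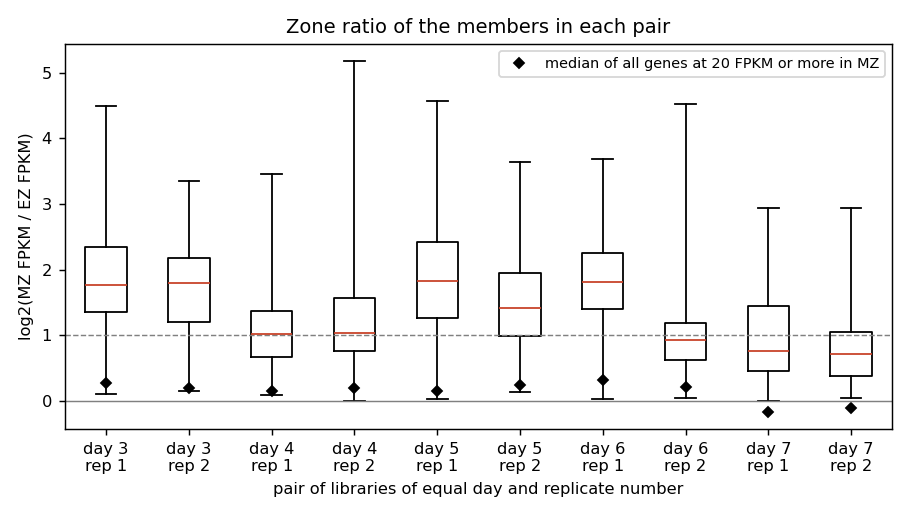
log2 ratio of MZ to EZ FPKM of the members in each of the 10 pairs (boxes: quartiles and median; whiskers: lowest and highest member; members listed at 0 in EZ left out of that pair), with the median of all genes at 20 FPKM or more in MZ as diamonds. All boxes lie above 0 since the rule required it, and the median member is above 2-fold (dashed) in 7 of the 10 pairs.

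Within the members, the size of the zone ratio depended on the pair of libraries. The median ratio was 3.39 and 3.46 in the pairs of day 3, 2.03 and 2.05 at day 4, 3.53 and 2.67 at day 5, 3.51 and 1.89 at day 6, and 1.69 and 1.64 at day 7. The median ratio of all 6049 genes with at least 20 FPKM in MZ moved less, between 1.1 and 1.25 from day 3 to day 6, and was 0.889 and 0.929 at day 7. The lower of the day 6 pairs thus lay near the pairs of day 7 and the higher near those of day 3. The number of members past 2-fold within a pair ran from 31, at day 7 replicate 2, to 100, at day 6 replicate 1. For 56 of the 109 the smallest ratio fell in a day 7 pair.

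The extremes of the members fell in few libraries. EZ day 6 replicate 2 was the highest EZ library for 31 members and EZ day 7 replicate 2 for 28, whereas MZ day 7 replicate 1 was the lowest MZ library for 32, MZ day 5 replicate 2 for 22 and MZ day 7 replicate 2 for 21. Together the members made up 2.88% to 4.59% of the FPKM in MZ libraries (median 3.84%) and 0.919% to 2.82% in EZ libraries (median 1.36%). The rule chose members for this difference, so nothing is read from the narrow gap between these shares. The members' share was highest in day 6 replicate 2 in EZ, at 2.82%. In MZ it was highest in day 7 replicate 2, at 4.59%, against 4.47% in day 6 replicate 2. The summed root cap markers were highest in day 6 replicate 2 in both zones, at 1561 FPKM in MZ and 1261 FPKM in EZ, and their part in these members' levels was not tested. Without the 4 day 7 libraries 297 genes would meet the rule, among them 107 of the 109. Without EZ day 7 replicate 2 alone 164 would, among them 105. With fewer pairs the condition on all pairs is easier to meet. The setting without day 7 was chosen after the data were seen, and no other day was left out for comparison, so the rise is not read as an effect of day 7.

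**Figure D4:**
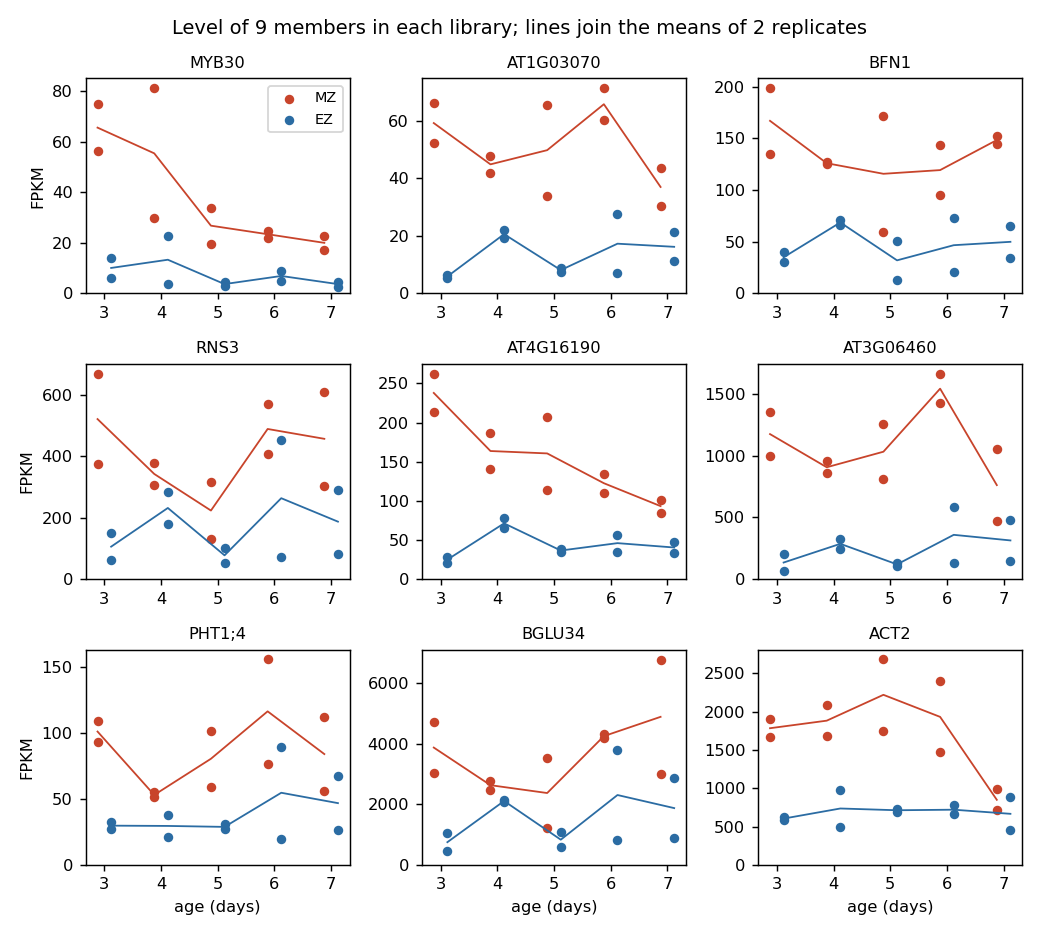
FPKM of 9 members in each of the 20 libraries against age in days, MZ in red and EZ in blue, with lines joining the means of the 2 replicates. The MZ means of MYB30 and AT4G16190 are highest at day 3, the MZ values of ACT2 are lowest at day 7 (986 and 711 FPKM), and RNS3, BGLU34 and PHT1;4 show EZ replicates that lie far apart at day 6.

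The rule compared the zones at every age but did not use the direction in which a gene changed with age. It used the values of every age, however, and so can bear on the slopes within a zone, which are given with that limit. A linear slope per day was fitted with limma on log2(FPKM + 1) over both zones, within MZ and within EZ. After adjustment over all 22335 genes, 0 of the 109 members passed in any of the 3 contrasts, where 0.242% of all genes passed over both zones, 0.918% in MZ and 0.0134% in EZ. At an unadjusted p of 0.05 the counts of members were 28, 20 and 18 (25.7%, 18.3% and 16.5%), and those of all genes 3685, 2897 and 1860 (16.5%, 13% and 8.33%). Among the genes with at least 20 FPKM in MZ, from which the members were drawn, the shares were 27.4%, 23.6% and 9.34%, so that the members lay below them over both zones and in MZ and above them in EZ.

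AT3G62270, with the alias BOR2, of the boron transporter family, had the smallest p over both zones. Its MZ values were 87.9 and 104 FPKM at day 3, 134 and 121 at day 4, and 148 and 165 at day 5. They were highest at day 6, at 177 and 214 FPKM, and stood at 130 and 174 FPKM at day 7. Its EZ values were 47.9 and 50.8, 69.0 and 57.9, 64.6 and 47.5, 75.7 and 106, and 69.2 and 135 FPKM at the same ages. The slope was 0.22 ± 0.05 per day (SE, n = 20 libraries; adjusted p = 0.0614 by limma, and 0.0206 to 0.201 over 27 alternative fits, 4 of which passed). The putative transmembrane protein gene AT4G03820 came next, at 0.18 ± 0.04 per day (adjusted p = 0.0813 by limma). It also had the smallest p within EZ, where its values were 4.96 and 6.10 FPKM at day 3 and 14.7 and 17.8 FPKM at day 7 (0.30 ± 0.06 per day, adjusted p = 0.261). AT3G62270 was next within EZ, at 0.24 ± 0.07 per day (adjusted p = 0.458).

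Within MZ the smallest p belonged to the protease gene AT4G16190, whose values were 263 and 213 FPKM at day 3, 141 and 186 at day 4, 208 and 114 at day 5, 134 and 111 at day 6, and 85.0 and 101 FPKM at day 7. The slope was -0.31 ± 0.07 per day (adjusted p = 0.0645 by limma, and 0.0471 to 0.323 over the alternative fits). The WD40 repeat gene AT5G17370 was next, at -0.21 ± 0.05 per day (adjusted p = 0.0895).

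**Figure D5:**
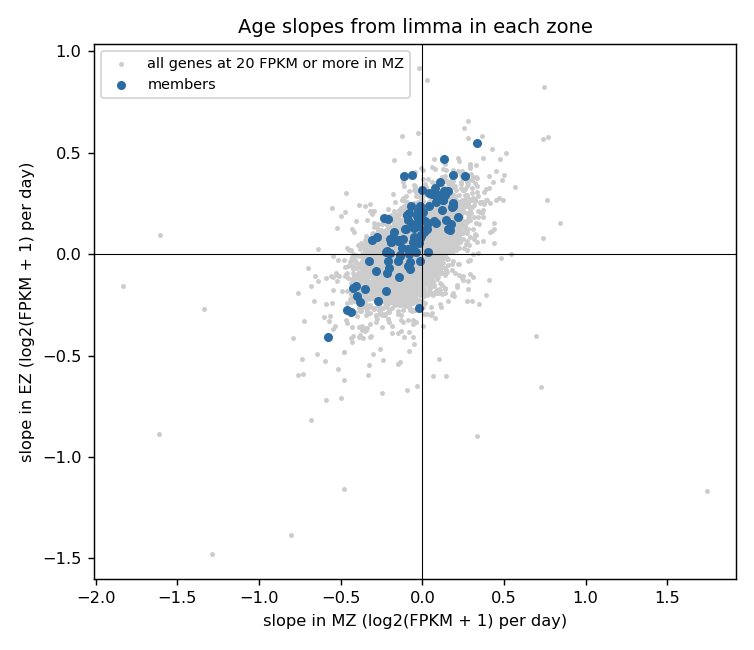
Slope per day on the log2(FPKM + 1) scale within EZ against the slope within MZ, from limma, for the 109 members (blue) and all genes with at least 20 FPKM in MZ (grey). The members lie mostly above the horizontal line at 0, with 85 of 109 slopes above 0 in EZ and 37 above 0 in MZ.

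The signs of the slopes can be given for all members, since all 109 passed the filter on low values. Slopes were above 0 for 85 of 109 members in EZ (78.0%) and for 37 in MZ (33.9%), where the shares over all genes with at least 20 FPKM in MZ were 51.7% and 32%. The median slope was 0.12 per day in EZ and -0.05 in MZ, against 0.01 and -0.06 over those genes. The count in MZ depended on the scaling between libraries, with 53 of 109 above 0 once quantiles were equalised and 57 under median-of-ratios scaling, where the count in EZ was 87 under both. Single libraries also moved it: without 1 library the count in EZ was 73 to 87, with 73 without EZ day 3 replicate 1, 74 without EZ day 7 replicate 2 and 79 without EZ day 6 replicate 2. In MZ it was 25 to 53, with 25 without MZ day 7 replicate 2 and 53 without MZ day 7 replicate 1. By role, slopes in EZ were above 0 for 8 of 8 members of cell death, nucleases and proteases, 10 of 10 of lipids, waxes and membranes, 21 of 24 of specialised and redox metabolism and 11 of 13 of the cell wall. They were above 0 for 11 of 19 regulators, 2 of 5 of the cytoskeleton and endomembranes, 5 of 8 of transport and phosphate release, 3 of 3 late embryogenesis abundant genes and 14 of 19 others. The members share the same 10 EZ libraries and the roles were set after the values were seen. No difference between roles is therefore read from these counts. A difference between the slopes of the zones was not tested, because the rule used every pair of libraries and so bears on how the zone ratio varies with age.

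In length and base composition the members lay near other genes. The median length of their longest transcript was 1654 bases, against 1621 over the genes with at least 20 FPKM in MZ, and the median GC content was 41.5% against 41.4%. Their spread over the libraries of a zone was wider, with a median SD of 0.55 in MZ and 0.67 in EZ on the log2(FPKM + 1) scale, against 0.41 and 0.38 over those genes.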

How the data were processed

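RNA sequencing values of 20 libraries were used as the authors deposited them, in FPKM, for 33201 genes; TopHat2 2.0.13, Cufflinks 2.1.1 and TAIR10 are named in the submitters' processing notes, and settings are not given in the sources used here. No read counts were used. Low FPKM values lay near whole multiples of a step in each library (64.3% to 81.6% within 0.1), but a step and its multiples could not be told apart, so the depth is unknown and no counting interval is given. Identifiers were matched to RefSeq's TAIR10.1 (32489 of 33201).

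The members and lists were chosen with earlier results of these data known. The 22335 genes that reached 1 FPKM in 2 or more libraries were fitted with limma 3.58.1 in R 4.3.3 on log2(FPKM + 1), a scale on which a fold of a low gene is understated, with a mean for each of the 10 groups, a variance trend and 1 shared spread; p-values are two-sided, adjusted by Benjamini-Hochberg over all genes tested, with a threshold of 0.05. An SE with n = 20 counts the libraries that share this spread. The fit was tested on simulated data. Tables and figures were made in Python 3.11.15 with pandas 2.3.3, numpy 2.4.6 and matplotlib 3.10.9. Copies were judged by 32-base words of the longest transcript found in other genes' longest transcripts.

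Named are the members with the 10 largest ratios, the 8 highest MZ means, those on a list, those without overlap of zones, the smallest p of each age contrast, those next to a limit, the 5 most and 5 least variable in MZ, families of at least 3, and up to 3 other called genes of a list in each direction; further members were named after their values were seen, to describe each role. Roles and family words were also set after the values were seen. The 5 genes most correlated with the members' mean were not named, because the libraries form a cluster for each zone and a pooled correlation would restate the zone difference. The pairing by number was checked by the correlation, across genes, of the replicate differences of the zones, which was 0.01, 0.28, 0.07, 0.03 and 0.35 for days 3 to 7. These values do not settle whether equal numbers mean paired libraries. Numbers were not taken as pairs in the fits, and no fit with a term for each pair was run. Alternatives were other pseudocounts, filters, scalings, limits of the rule, the replicate number as a block, and each library left out.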

Additional observations from a re-analysis of the deposited data

Results flagged for a closer look

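Each member and the members' mean were examined over the 10 libraries of a zone, of all ages together, for a library far from the rest; 16 of 220 sets of 10 values (7.27%) held one, where chance gives about 5%. In each, the gap to the nearest other library on the log2(FPKM + 1) scale was a larger part of the zone's range than Dixon's critical value for 10 values.

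MZ day 5 replicate 2 was far below the other MZ libraries for RNS3 (132 FPKM, others 305 to 670), PLDP2 (15.7, others 26.2 to 42.5), SWEET2 (12.9, others 30.2 to 66.7) and AT1G17310, a MADS-box gene (5.12, others 15.5 to 43.7). EZ day 4 replicate 2 was far below the other EZ libraries for PDC3 (1.14 FPKM, others 8.78 to 21.7), KCS5 (2.03, others 12.2 to 34.1), AT4G25250 (3.95, others 20.5 to 59.1) and EXPA17 (1.29, others 12.9 to 58.5). MZ day 7 replicate 2 was low for AT1G30870, a peroxidase gene (83.0 FPKM, others 183 to 360), RALFL22 (133, others 260 to 451) and AT2G07835 (1.94, others 14.2 to 54.6), and high for CYP702A2 (221, others 46.0 to 104). MZ day 7 replicate 1 was low for AT1G77770 (116 FPKM, others 152 to 190). EZ day 7 replicate 2 was high for AT2G39530 (173 FPKM, others 26.2 to 66.1), EZ day 4 replicate 1 high for MDP40 (17.6, others 5.26 to 9.31), and EZ day 3 replicate 1 low for AT5G07870 (62.8, others 94.7 to 150).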

How the results depend on the processing

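The count of 109 members moved by more than 1.5 times under 8 of 32 alternatives: 390 with a fold of 1.5, 18 with a fold of 3, 168 with at least 9 of 10 pairs, 13 without any overlap, 228 after median-of-ratios scaling (106 of the 109 among them), and, in alternatives chosen after seeing the data, 297 without day 7 and 223 without EZ day 6 replicate 2 and EZ day 7 replicate 2 together. Leaving out 1 library gave 96 to 164, the highest without EZ day 7 replicate 2. The median zone difference of all tested genes was 0.15 in the deposited values, -0.05 with equal quantiles and 0.06 under median-of-ratios scaling, and all 109 members stayed higher in MZ under each, 105 and 109 of them by 2-fold.

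For age trends, 0 members became 1 in each of the 3 trends with no filter on low values, and 1 over both zones (AT3G62270, adjusted p = 0.0458 by limma) with the replicate block, a fit in which the numbers are not shown to pair libraries. Leaving out 1 library gave 0 to 2 members over both zones, 0 to 1 in MZ and 0 to 0 in EZ. The 2 were AT2G07835 and AT3G62270, without MZ day 7 replicate 1 or without EZ day 7 replicate 1. Without EZ day 6 replicate 1, AT3G62270 passed over both zones; in MZ, AT4G16190 passed without MZ day 5 replicate 1 or 2, AT2G07835 without MZ day 7 replicate 1, and AT5G67340 without EZ day 4 replicate 1 or 2. The cause was not tested. The other list genes kept counts within 1.5 times, from 25 to 51 lower and from 12 to 22 higher in EZ over 27 alternatives, with the replicate block changing neither by more than that. Depth is unknown, so what it limits could not be set out.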
